A study of Mus musculus with 8 samples.

Results

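Introns of 20 kb and over were examined in RNA sequencing of mouse bone marrow monocytes and their precursors. An intron counted as measured when it was listed in all 8 intron tables, was classed as clean in all 8, and had at least 20 boundary and spliced reads together in every library. Of 65553 measured clean introns, 2268 (3.46%) were 20 kb or longer, and they lay in 1112 of the 7011 genes with a measured clean intron. The choice used length, class and read number, and no difference between groups. All tables mark introns with a known exon, but the classes anti-near and anti-over occur in the knockout tables and in none of the others, so introns in those classes were left out on the knockout tables' marks. Any other difference in how the knockout tables were made cannot be told apart from the knockout.

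The series held 8 libraries in 5 groups: 1 of MDP, the monocyte and dendritic cell progenitor (genotype MDP_WT), 2 of cMOP, the common monocyte progenitor (cMOP_WT), 2 of Ly6Chi monocytes, the classical inflammatory monocytes (Ly6Chi_WT and LyC6hi_WT), 1 of Ly6Clo monocytes, the patrolling kind (LyC6lo_WT), and 2 of Ly6Chi monocytes with a knockout of Upf2 (LyC6hi_KO). All came from bone marrow and are given as healthy, and all but the knockout as untreated. The expression table heads the cMOP and Ly6Chi control columns FL_FL. The Cre driver, the age and the strain of the mice are not given in the sources used here, and the cell type tag calls every sample a monocytic cell line although the material is described as primary cells. Whether replicates are separate animals is not stated, and p-values therefore measure only the spread between these libraries, which may be technical. The single libraries of MDP and Ly6Clo were taken to vary as the replicated groups do. Values for every library are given below in the order MDP, cMoP 1 and 2, Ly6Chi 1 and 2, Ly6Clo, and knockout 1 and 2.

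An intron is removed by the spliceosome, which joins its 5′ end to a branch point inside it and then links the flanking exons. Long introns leave the polymerase far to travel between the start of the intron and its 3′ end. They are common near the start of genes and can hold alternative first exons, cryptic exons and polyadenylation sites. When an intron stays in a messenger RNA, it usually brings an early stop codon, and such RNAs can be destroyed by nonsense-mediated decay, for which Upf2 is a core factor.

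The reads that measure such an intron are of distinct kinds. Boundary reads run across an exon and intron edge. They can come from unspliced RNA, from RNA that begins or ends inside the intron, or from spliced RNA whose exon runs past the listed edge. Spliced reads join 1 of the intron's flanking exon ends to any other exon end, and the larger of the counts for the 5′ and 3′ exon end was used. Exact spliced reads join precisely the 2 ends of the listed intron. The exon joins made by removing some of the coding introns described below are shown to place them in their messenger RNAs. Each line gives the last 15 exon bases before the intron in lower case and the 15 bases after it in capitals, 5′ to 3′ on the gene's strand, from GENCODE M21 transcripts (mm10).

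Lrp6: agatccatcaagtggGTTCATGTACTGGAC
Hipk2: atccagatactaccgGGCCCCTGAGATCAT
Ubash3b: cagacttctgaaagaACAAAAAGCTCTGGC
Asap1: ttcactatggaatcgGATGCCGGACCAGAT
Fbxw4: cagcccattactcagCTCTTTTGTGACTGG
Mkl1: tggctgtgcagtcagTGCTGCAGTTGAAGC
Gphn: tcggagtcctcacagTGAGTGATAGCTGCT
Nup205: tctcagccttggaagAGATGAACTGAGGAG
Smyd3: gaagcctttgcaaaaGTGATCTGCAATTCG

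The letters around the joins of long introns were close to those of shorter ones. The upstream exon ended in AG at 55.4% of long and 56.2% of shorter introns, and the downstream exon began with G at 48.7% and 48.5%.

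The long introns had a median length of 30850 bp, with quartiles of 24468 and 46435.8 bp. Their lengths ran from 20009 to 569097 bp, and 491 were 50 kb or longer and 84 were 100 kb or longer. The longest listed were a pair of overlapping introns of 1700112E06Rik on chromosome 14, of 569.1 kb (22027328 to 22596424) and 550.5 kb, which share their 5′ end. Next came introns of 310.9 and 279.6 kb in Smyd3, a lysine methyltransferase gene on chromosome 1, and the 256.5 kb intron 1 of Mctp1 on chromosome 13. All of these had few boundary reads: the 569.1 kb intron had 4, 4, 0, 1, 3, 1, 2 and 3 against 76, 166, 144, 83, 93, 37, 96 and 89 spliced reads.

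Most host genes (576) had 1 long intron, 536 had 2 or more and 80 had 5 or more. Ctbp2, a transcriptional corepressor, had 13 and Mapkap1, a subunit of the mTORC2 kinase complex, had 12. Diaph2, a formin that nucleates actin filaments, and Exoc4, an exocyst subunit, had 11 each, and Cdkal1, a tRNA-modifying enzyme, had 10. The introns were not independent of each other. Of the 2268, 414 shared their 5′ end and 660 their 3′ end with another long intron, 1219 overlapped no other, and together they covered 1621 separate stretches of genome.

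Long introns sat nearer the start of their transcripts than shorter measured introns. Matched to GENCODE M21, 938 (41.5%) were intron 1 of their transcript, against 9.76% of shorter introns. In the 5′ untranslated region lay 487 (21.5%, against 4.41%), in the coding region 1536 (67.9%, against 90.8%), and 230 (10.2%, against 4.26%) belonged to transcripts with no coding region. Fewer of the long clean introns had enough reads to be measured, 22.9% of 9883 against 40.4% of 156611 shorter ones.

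The stage libraries matched their labels at the genes named here, and the lists they come from did so in part. Flt3, a receptor of early progenitors, was at 197.4 TPM (transcript level scaled to a fixed total per library) in MDP and at 0.88 to 10.3 elsewhere. Ms4a3, a marker of monocyte and granulocyte precursors, was at 679.2 and 1118 in cMoP against 8.82 to 56.0 elsewhere. Ly6c2 was at 183.5 in MDP and 62.8 in Ly6Clo against 3439 to 4875 in the rest, cMoP included, and Treml4, a Ly6Clo marker, was at 658.8 in Ly6Clo against 0.18 to 20.1. By the expression test described below, 11 of 13 Ly6Chi marker entries rose and 0 fell from cMoP to Ly6Chi. From Ly6Chi to Ly6Clo 1 of them rose and 5 fell, while 10 of 12 Ly6Clo markers rose and 0 fell. Of 15 markers of MDP and cMoP, 5 rose and 4 fell from MDP to cMoP, and 3 rose and 9 fell from cMoP to Ly6Chi. Upf2 itself was no lower in the knockout in TPM (20.4 and 22.4, against 20.1 and 18.2 in Ly6Chi), and its exact spliced reads from exon 2 to exon 3 were 10 and 13 against 41 and 45 in Ly6Chi but 16 in cMoP 2. From exon 1 to exon 2 they were 2 and 12, against 14 in cMoP 2. cMoP 2 shares the 3′ lean described next. Knockout 2 and cMoP 1 had leans close to each other. Their exact reads were 12 and 28 from exon 1 to exon 2, and 13 and 38 from exon 2 to exon 3. From exon 5 to exon 6 they were 110 and 101. The part of the lean in these counts was not tested, and no test was made of the knockout label. Spliced reads over all listed introns came to between 34094665 and 43771693 per library. A lean of reads toward the 3′ end, the median log2 ratio of 3′ over 5′ spliced reads in a gene, was strongest in cMoP 2 and knockout 1 (0.670 and 0.645), against 0.446 in cMoP 1, 0.437 in knockout 2 and 0.225 to 0.277 in the others. cMoP 2 stands apart in several values below, and the counts and medians that move with it are also given without it.

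The typical long intron had fewer boundary reads for its spliced reads than the typical shorter intron. The median number of boundary reads per 100 spliced reads was 1.69 in the MDP library, 2.20 and 1.59 in the cMoP ones, 1.70 and 1.69 in the Ly6Chi ones, 1.90 in Ly6Clo, and 1.89 and 1.80 after knockout. Among shorter introns it was 3.64, then 3.46 and 2.15, then 3.57 and 3.63, then 3.70, then 2.85 and 3.03. The long introns were lower in 8 of 8 libraries, by 1.45 ± 0.52 (mean and SD of the differences, n = 8 libraries). The difference was smallest in cMoP 2, where only the shorter introns were far from their level in the other libraries. Introns just above and just below the length limit were alike: the 126 introns of 20 to 21 kb had 1.94 boundary reads per 100 and the 173 introns of 19 to 20 kb had 2.08, as means over libraries.

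**Figure D1:**
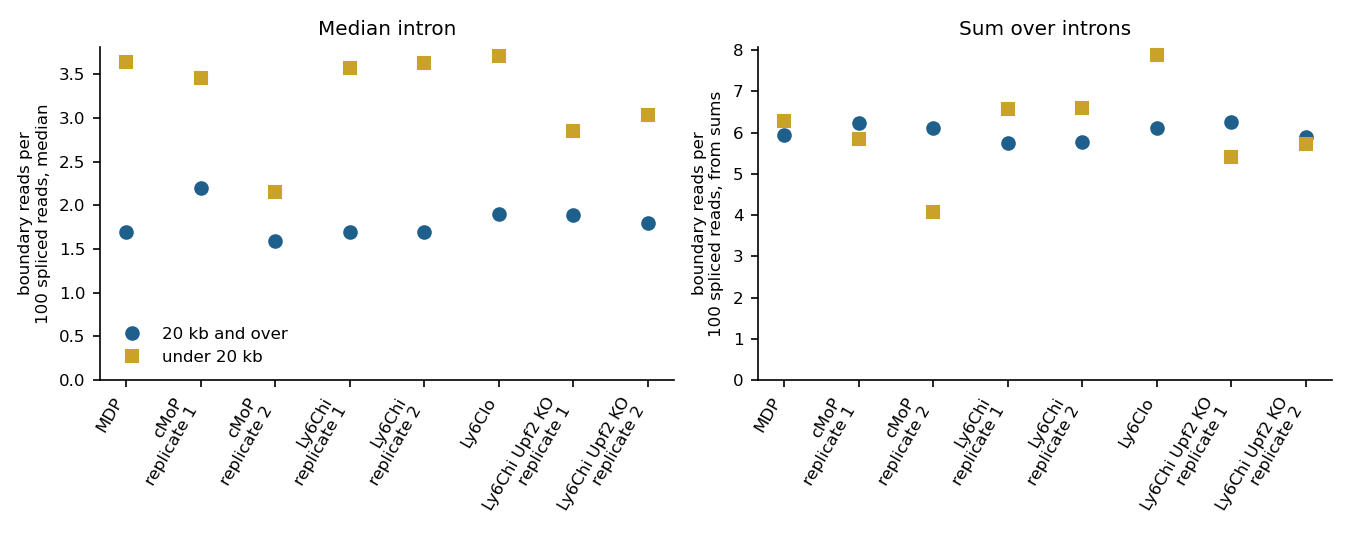
Boundary reads per 100 spliced reads in each of the 8 libraries, as the median over introns (left) and from summed reads (right); circles are introns of 20 kb and over and squares are shorter introns. By the median the long introns are lower in 8 of 8 libraries, and by summed reads in 4 of 8.

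The median fell across the range of lengths, with no step at 20 kb. In MDP it went from 4.48 in introns up to 100 bp to 1.79, 1.42 and 0.955 in the 3 bins of 20 kb and over (1777, 407 and 84 introns). In cMoP 2 the span was narrower, from 2.84 to 1.60, 1.64 and 1.24. In cMoP 1 the last bins did not continue downward, at 2.25, 1.89 and 2.41.

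**Figure D2:**
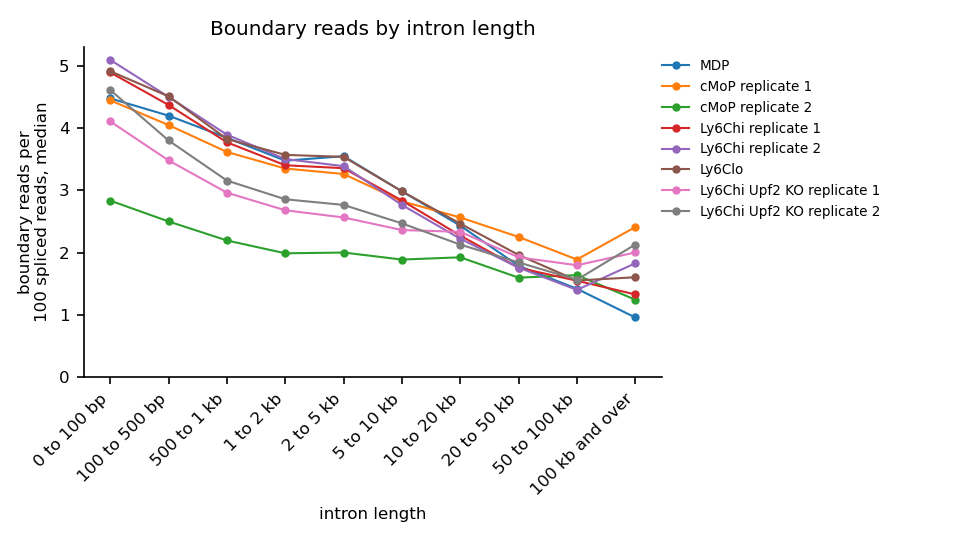
Median boundary reads per 100 spliced reads (vertical axis) by intron length (horizontal axis, bins from up to 100 bp to over 100 kb), with 1 line for each library. In MDP the line runs from 4.48 to 0.955, and in cMoP 2 from 2.84 to 1.24.

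Summed reads did not show the difference seen in the medians. All boundary reads of the long introns divided by all their spliced reads gave 5.93, 6.23, 6.12, 5.74, 5.77, 6.12, 6.26 and 5.89 per 100, a mean of 6.01 ± 0.201 (SD, n = 8 libraries). Shorter introns had 6.05 ± 1.1, so the mean difference was -0.04 ± 1.17, and the long introns were lower in 4 of 8 libraries. A few long introns held most of the boundary reads: the 114 introns (5%) with the most held 65.4 to 74.5% of them in each library, against 51.6 to 65.9% among shorter introns. This share was looked at after the sums were seen.

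These few introns were rarely spliced as listed. In the 114, the median share of exact reads among spliced reads was 1.21 to 4.70%, against 96.4 to 99.4% in the corresponding shorter introns. Introns with no spliced read in a library do not enter its median. The intron with the most boundary reads lay in Sirpa, an inhibitory receptor of myeloid cells (chromosome 2, 129593695 to 129630292). It had 12240 boundary reads over the 8 libraries, 5.14% of those of all long introns, with 0.89% of them at its 5′ edge, 5847 spliced reads and 0 exact reads. Next was an intron of Snx3, a sorting nexin, with 8291 boundary reads, 99.9% at the 5′ edge, and 3 exact reads among 6516 spliced. An intron of Sec11a, a subunit of the signal peptidase, had 7786 boundary reads, none at the 5′ edge, and 2 exact reads among 4707 spliced. Introns of Cse1l, Scp2, Nup205 and Sulf2 had between 3490 and 5108 boundary reads and no spliced read at all.

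Boundary reads of long introns lay mostly at only 1 edge. An intron with at least 10 boundary reads was called read mainly at 1 end when the smaller edge count was under 0.25 of the larger. That held for 73.5% of such long introns in the MDP library, 74.4 and 83.5% in the cMoP ones, 75.9 and 77.0% in the Ly6Chi ones, 74.4% in Ly6Clo, and 77.2 and 78.6% after knockout, with 267 to 443 introns per library. Among shorter introns it held for 26.0 to 55.1%, highest in cMoP 2. The means were 76.8 ± 3.21 and 35.4 ± 9.57% (SD, n = 8 libraries), and the long introns were higher in 8 of 8. In a comparison added after seeing the data, limited to introns with 10 to 49 boundary reads, the shares were 72.0 to 81.6% and 26.4 to 52.9%.

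**Figure D3:**
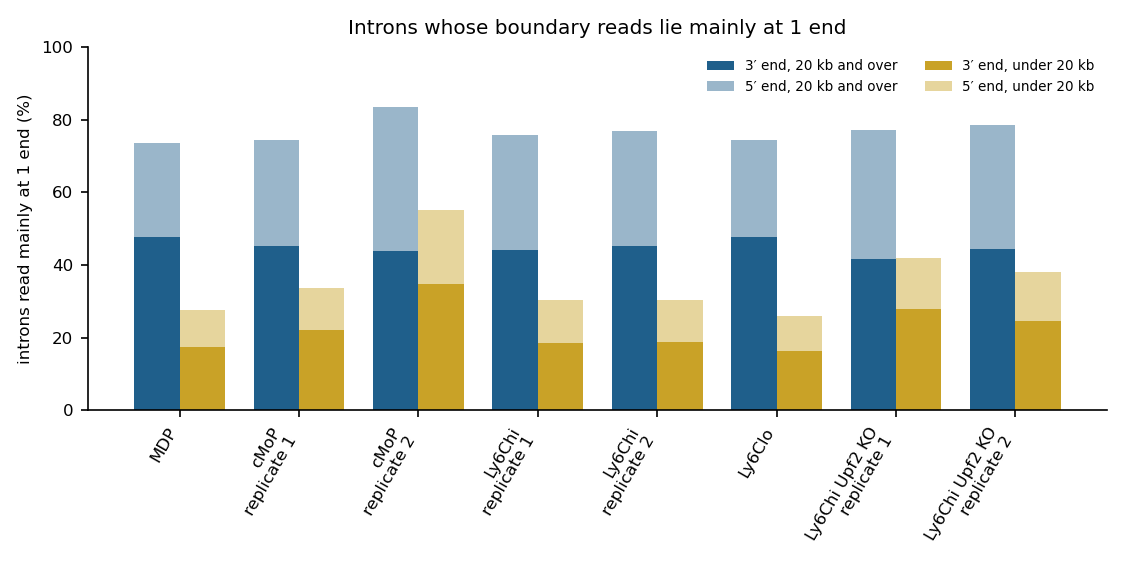
Share of introns with at least 10 boundary reads that are read mainly at 1 end (vertical axis, %), by library; the solid part of each bar is the 3′ end and the pale part the 5′ end, for introns of 20 kb and over and for shorter introns. The long introns reach 73.5 to 83.5% and the shorter ones 26.0 to 55.1%.

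The lean was more often to the 3′ end, and this held for shorter introns too. Of the long introns with at least 10 boundary reads, 41.7 to 47.8% were read mainly at the 3′ end. Of those with 10 to 49, 38.1 to 48.5% were read mainly at the 3′ end and 24 to 40.8% at the 5′ end. In cMoP 2 both shares were 40.8%. Shorter introns with 10 to 49 had 16.5 to 33.9% at the 3′ end and 9.87 to 19.1% at the 5′ end. The median share of boundary reads at the 5′ edge was 21.3, 27.0, 50, 30, 28.6, 23.1, 38.7 and 31.3%. Among shorter introns it was 36.6 to 44.8%, and the long introns were lower in 7 of 8 libraries, cMoP 2 being the exception. Of the 91 long introns with at least 20 boundary reads in every library, 46 had under 25% of them at the 5′ edge on average and 32 had over 75%.

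The named introns with the lowest 5′ share had no 5′ boundary read in any library. That of Sec11a (chromosome 7, 80923216 to 80947401) had 784, 1180, 1654, 677, 831, 630, 1151 and 879 reads at its 3′ edge. Introns of Asap1, Srpk2 and Pnrc1 were likewise read at the 3′ edge alone. Asap1 (chromosome 15, 64312476 to 64349827, intron 2) had 114, 113, 36, 240, 286, 240, 96 and 223 reads at the 3′ edge, although 95.8% of its spliced reads were exact.

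The named introns with the highest 5′ share had no 3′ boundary read. The last intron of a coding transcript of Dnajb6, a chaperone of the Hsp40 family (chromosome 5, 29766396 to 29817920), had 315, 536, 584, 324, 345, 134, 371 and 310 reads at its 5′ edge. Introns of Amy1, an amylase gene, of Ccdc163, of Fchsd2 and of N4bp1 behaved alike. Amy1 had 43, 54, 108, 74, 66, 82, 112 and 76 reads at its 5′ edge and 1 spliced read in all libraries together, while its host gene was at 0.04 to 0.39 TPM.

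Long introns were also joined less exactly. The median share of exact reads among spliced reads was 88.7 to 91.6% in long and 99.5 to 99.7% in shorter introns (89.9 ± 0.9 and 99.6 ± 0.0824%, SD, n = 8 libraries), lower in 8 of 8 libraries. The difference lay mainly with intron 1, where the median exact share was 18.9 to 22.0%, against 95.6 to 96.8% in later long introns. Intron 1 was also more often read mainly at the 3′ end, 49.2 to 63.5% against 36.0 to 40.5% in later long introns. In 287 long introns no exact read was found in any library, and in 1407 there were at least 10 in every library.

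With exact reads as the denominator, the medians of long and shorter introns came closer. Boundary reads per 100 exact reads were 2.60, 3.5, 2.5, 2.66, 2.86, 2.94, 2.86 and 2.96 in long introns and 4, 3.86, 2.38, 3.96, 4.08, 4.11, 3.16 and 3.37 in shorter ones. The long introns were then lower in 7 of 8 libraries, and higher in cMoP 2. Among the 1345 long introns with at least 0.5 of their spliced reads exact, a limit added after seeing the data, the value was 1.68 to 2.22 against 2.11 to 3.55 per 100 spliced reads.

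Within a host gene the long introns stood close to the gene's other introns. In 1068 genes with both kinds, the long introns had fewer boundary reads per spliced read than the gene's shorter introns in 58.6% of genes in the MDP library, 54.6 and 46.4% in the cMoP ones, 57.2 and 57.3% in the Ly6Chi ones, 57.4% in Ly6Clo, and 48.97 and 50.7% after knockout. The median log2 difference was -0.29, -0.15, 0.06, -0.32, -0.32, -0.28, 0 and -0.03. cMoP 2 and the knockout libraries, near or above 0, had 3′ leans of 0.670, 0.645 and 0.437, and cMoP 1 had 0.446; the part of this lean was not tested. With exact reads as the denominator the share turned to 31.1 to 40.5% of genes, so the direction within genes rests on how spliced reads are counted.

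By the authors' deposited retention ratio, very few long introns were retained. A ratio of 0.1 or more was found for 13 long introns in the MDP library, 10 and 6 in the cMoP ones, 11 and 10 in the Ly6Chi ones, 13 in Ly6Clo, and 8 and 7 after knockout. These are 0.265 to 0.573% of the 2268 (95% Wilson intervals from 0.121 to 0.576% for the lowest count and 0.335 to 0.978% for the highest, for counting error only). Shorter introns reached 0.1 in 1.56 to 8.38%, and the long introns were lower in 8 of 8 libraries. The ratio follows its own rule at these lengths. It uses the depth of reads in the intron where that is at least 1, and otherwise the share of intron bases covered, which gave the deposited value within 0.0001 for 99.4 to 99.5% of long introns. Depth was under 1 for 84.5 to 99.2% of long and 40.3 to 66% of shorter introns, so for most long introns the ratio sets a covered share against a number of reads. A covered share is at most 1, so such an intron cannot reach 0.1 with 10 or more spliced reads. The low counts are thus partly fixed by the rule, and long and shorter introns are not compared on equal terms. A median of 10.2 to 25.7% of the bases of a long intron were covered, against 36.0 to 83.4% in shorter introns.

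The long introns at a ratio of 0.1 or more were 16, in 16 genes, and 12 of them had at most 10 spliced reads in every library. Those at or above 0.1 in all 8 libraries lay in Dnajb6, Ggnbp2, Gprasp1 and Nup205. The 55.5 kb intron of Nup205, a scaffold protein of the nuclear pore (chromosome 6, 35191960 to 35247436), had 687, 737, 968, 313, 317, 152, 345 and 340 boundary reads and 0 spliced reads in every library. It is the last intron of a coding transcript, and its exon join is among those printed above. The 34.4 kb intron of Dnajb6 (29751026 to 29785442) had 1065, 924, 956, 724, 756, 465, 724 and 648 boundary reads against 0 to 2 spliced reads. That of Ggnbp2, in the 5′ untranslated region, had 447 to 736 boundary and 0 to 6 spliced reads, and that of Gprasp1 on chromosome X had 25 to 92 and 0 to 5.

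Introns of Inpp4a, a phosphoinositide phosphatase, Usp48, a deubiquitinase, Acsl1, an acyl-CoA synthetase, and Cse1l, a nuclear export receptor, reached 0.1 in 6 or 7 libraries with no spliced read. Their ratio was 1 in those libraries and 0 in the rest. Only 2 of the 16 had at least 20 spliced reads in every library. The intron of Ric8b, a chaperone of G protein subunits (chromosome 10, 84992265 to 85015075), had 47 to 80 spliced reads and ratios from 0.00938 in cMoP 2 to 0.175 in Ly6Clo. That of the zinc finger gene Zfp995 had 24 to 49 spliced reads and ratios up to 0.163. The tables attach a warning to most long introns, and among the 619 to 809 (27.3 to 35.7%) without one in a library, none reached 0.1. Where depth was under 1, the rule above keeps any of these with 10 or more spliced reads below 0.1.

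Differences between groups were tested on the reads themselves, as the change in boundary reads relative to spliced reads, with edgeR's quasi-likelihood test over all 48132 introns that had at least 20 boundary reads in all. Of the long introns 1208 (53.3%) were tested, in 780 genes, and 1060 had too few boundary reads. Between stages and between genotypes at most 1 passed an adjusted p of 0.05 in the fit of all 8 libraries, and the number depends on the libraries fitted. Between cMoP and MDP 0 of the 1208 passed, beside 0 of all 48132 introns (0%), with 88 long introns (7.29%) at an unadjusted p under 0.05 beside 8.35% of all. Between Ly6Chi and cMoP 1 passed, beside 7 of all (0.0145%), with 90 (7.45%) beside 10.9% of all at an unadjusted p under 0.05. Between Ly6Clo and Ly6Chi 0 passed, beside 0 of all (0%), with 57 (4.72%) beside 4.97% at an unadjusted p under 0.05. Between knockout and Ly6Chi 0 passed, beside 1 of all (0.00208%), with 61 (5.05%) beside 6.94%. By unadjusted p the share of long introns was below that of all introns in each of these comparisons in this fit. The order turned in some of them when 1 library was left out. It also turned under the scaling described below, except in Ly6Clo against Ly6Chi. A test of any difference among the 4 stages called 1 long intron, beside 0.0125% of all.

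Without cMoP 1 the calls rose in all introns and less in the long ones. Between cMoP and MDP 36 long introns (2.98%) were then called beside 10.3% of all, between Ly6Chi and cMoP 41 (3.39%) beside 14.5%, and over the stages 62 (5.13%) beside 13.9%. Without cMoP 2 there were 5 between Ly6Chi and cMoP (0.0727% of all introns) and 16 over the stages (0.925%). A fit of the compared groups alone called 8 long introns (0.662%) in Ly6Clo beside 0.879% of all, and 8 (0.662%) in the knockout beside 0.814%.

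The median change over the long introns was not that over all introns. From cMoP to Ly6Chi it was -0.13 on the log2 scale in the long introns and 0.38 in all introns tested, and from MDP to cMoP it was 0.10 and -0.39. Without cMoP 2 the medians were -0.21 and 0.12 for the former and 0.20 and -0.11 for the latter, and without cMoP 1 they were 0.06 and 0.83, and -0.13 and -0.84. In the knockout against Ly6Chi the medians were 0.05 and -0.32, and in Ly6Clo against Ly6Chi 0.05 and 0.11. The comparisons share their cMoP and Ly6Chi libraries, so these medians are not independent of each other.

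Scaling boundary and spliced reads apart by TMM removes the shift over all introns and gave more calls. It called 1 long intron between cMoP and MDP (0.0187% of all introns), 4 higher and 16 lower in Ly6Chi than in cMoP (0.17% and 0.239% of all), 3 in Ly6Clo against Ly6Chi, all lower (0.0416% of all were called lower), and 8 in the knockout, all higher (0.104% of all were called higher). Over the 4 stages it called 32 (2.65%), beside 1.07% of all. In the same order of comparisons, 11.1, 14.5, 6.62 and 9.35% of the long introns had an unadjusted p under 0.05 (edgeR). Beside them stood 9.70, 10.7, 8.07 and 7.87% of all introns. Under this scaling the long introns were thus above all introns except in Ly6Clo against Ly6Chi. The median over the long introns under this scaling was 0.44, -0.49, -0.11 and 0.38, against -0.03, -0.01, -0.05 and 0.01 over all. Introns named below for passing under this scaling were chosen after seeing the data.

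The long intron that passed without scaling was intron 2 of Sema4d, in the 5′ untranslated region (chromosome 13, 51734571 to 51763251, minus strand, 28.7 kb). Sema4d encodes a membrane semaphorin of leukocytes. Its 3′ edge had 14 reads in the MDP library, 10 and 4 in the cMoP ones, 480 and 404 in the Ly6Chi ones, 760 in Ly6Clo, and 112 and 195 after knockout, while its 5′ edge had 1 in MDP and 0 elsewhere. Spliced reads were 253, 101, 36, 140, 132, 166, 40 and 94, of which 26, 21, 1, 18, 14, 18, 4 and 4 were exact. Every monocyte library was above every progenitor library in boundary reads, with no overlap.

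From cMoP to Ly6Chi the boundary reads of this Sema4d intron, relative to spliced reads, rose by 4.95 ± 0.45 (log2 and SE, edgeR, adjusted p = 0.00415), from 10.2 to 325 per 100 spliced reads. The call held in 12 of 16 alternatives. It was lost without Ly6Chi 1 (adjusted p = 0.271), without Ly6Chi 2 (0.199) and in a fit of the compared groups alone (0.0616), and reads at the 5′ edge alone gave -1.13. Without cMoP 2 the adjusted p was 1.68e-05. The level of the gene also rose, from 20.0 and 11.04 TPM in cMoP to 155.9 and 131.1 in Ly6Chi.

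Other long introns differed between progenitors and Ly6Chi monocytes by values that did not pass without scaling. Intron 2 of Lrp6, a Wnt co-receptor (chromosome 6, 134520594 to 134541651), had 15 boundary reads in the MDP library, 29 and 18 in the cMoP ones, 9 and 10 in the Ly6Chi ones, 15 in Ly6Clo, and 11 and 13 after knockout. Spliced reads were 64, 13, 7, 41, 34, 57, 10 and 13, so the boundary reads outnumbered spliced reads only in cMoP and in knockout 1. The log2 change from MDP to cMoP was 3.31 (adjusted p = 0.597; scaled, 0.0304) and from cMoP to Ly6Chi -3.19 (0.295; scaled, 0.00142). Intron 2 of Hipk2, a nuclear kinase (chromosome 6, 70.2 kb), had 40 and 47 boundary reads with 22 and 6 spliced in cMoP, and 27 and 37 with 71 and 48 in Ly6Chi (log2 change -2.57, adjusted p = 0.414; scaled, 0.0223). Without cMoP 2 the changes from cMoP to Ly6Chi were -3.11 for Lrp6 (adjusted p = 0.0874) and -1.74 for Hipk2 (0.543), and without cMoP 1 they were -3.31 (0.00611) and -3.82 (0.00973). For both, spliced reads were low where the ratio was high, and cMoP 2 and knockout 1, with the strongest 3′ lean, had 7 and 10 spliced reads in Lrp6 and 6 and 4 in Hipk2. The part of that lean was not tested.

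Ubash3b, a phosphatase that restrains receptor signalling, showed the opposite pattern in a 110 kb intron (chromosome 9, 41051371 to 41161403). It had 0 boundary reads in the MDP library, 2 and 0 in the cMoP ones, 60 and 56 in the Ly6Chi ones, 66 in Ly6Clo, and 20 and 30 after knockout. The change from cMoP to Ly6Chi had an adjusted p of 0.348 (scaled, 0.0151), and the ratio of summed boundary to spliced reads was 20.6 times higher in Ly6Chi, with a 95% counting interval of 5.57 to 172. A pair of introns of Pkib, an inhibitor of protein kinase A, share a 3′ end and so nearly the same boundary reads. They had 57 or 58 in the MDP library, 80 or 81 and 50 in the cMoP ones, 141 and 147 in the Ly6Chi ones, 25 or 26 in Ly6Clo, and 116 and 134 after knockout (scaled adjusted p = 0.00456 and 0.00603).

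In Ly6Clo monocytes, Fbxw4 had few boundary reads. Intron 5 of 8 of this F-box gene (chromosome 19, 45591795 to 45630864) had 239 in the MDP library, 168 and 131 in the cMoP ones, 192 and 247 in the Ly6Chi ones, 21 in Ly6Clo, and 263 and 262 after knockout, nearly all at the 3′ edge. Spliced reads ran only from 61 to 121, with 119 in Ly6Clo. The Ly6Clo library lay below all 7 others, with a log2 change against Ly6Chi of -3.50 ± 0.49 (edgeR, adjusted p = 0.23; scaled, 1.86e-05). With 1 Ly6Clo library, the difference has no replicate check in that group.

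The 59.4 kb intron 1 of Mkl1, an actin-responsive transcriptional coactivator (chromosome 15, 81045355 to 81104772), had 107, 120, 44, 315, 313, 129, 139 and 232 boundary reads. Its spliced reads were 45, 39, 20, 125, 90, 321, 55 and 83, so Ly6Clo was low by having more spliced reads. The log2 change was -2.88 (adjusted p = 0.39; scaled, 1.86e-05), and a longer Mkl1 intron with the same 3′ end gave the same reads. The Asap1 intron, read at its 3′ edge alone, had 240 boundary reads against 21 spliced in Ly6Clo and 526 against 208 in the Ly6Chi libraries together (log2 change 2.17, adjusted p = 0.948).

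In the knockout, no long intron passed without scaling, and the 3 with the lowest p in each direction are named. Those higher than in Ly6Chi were in Fancl, Spag9 and Fut8, and each had at most 2 boundary reads in a Ly6Chi library. The minimum of boundary reads for testing was set over all libraries together, the knockout included. Without the knockout libraries Fancl, Spag9 and the Gphn intron described below would have been under it. They entered the test through the group where they were high. The part of this in their p-values and ratios was not tested. Fancl, a ubiquitin ligase of the Fanconi anaemia pathway, had a 35.1 kb intron (chromosome 11, 26387311 to 26422407) with 0, 3, 1, 0, 2 and 1 boundary reads in the 6 other libraries and 35 and 33 in the knockout. Spliced reads differed little, at 86, 104, 105, 111, 135, 62, 113 and 92, of which 0.699% on average were exact. Relative to spliced reads the knockout was 40.8 times higher than Ly6Chi (95% counting interval 10.9 to 344), with a log2 change of 5.20 ± 0.76 (edgeR, adjusted p = 0.215; scaled, 2.69e-05). The knockout libraries did not overlap with any other in boundary reads. As the intron entered the test through those reads, neither this nor its ratio and p-values are support for a difference. The same holds for Spag9 and Gphn.

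The lower ones were in Tpst2, Auh and A630001G21Rik. Intron 1 of Tpst2, a tyrosine sulfotransferase, had 10 and 10 boundary reads in Ly6Chi and 2 and 2 in the knockout (log2 change -2.61, adjusted p = 0.716). Intron 3 of Auh, an RNA-binding enzyme of leucine breakdown, had 15 and 20 against 5 and 4 (-2.23, adjusted p = 0.716), but cMoP had 5 and 1. Intron 3 of A630001G21Rik had 65 and 50 against 16 and 23 (-1.64, adjusted p = 0.716), all at the 3′ edge, and cMoP 2 had 16. Scaled, their adjusted p-values were 0.305, 0.295 and 0.3.

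An intron of Spag9, a scaffold of JNK signalling, had 11 and 8 boundary reads in the knockout, 0 in both Ly6Chi libraries and 0 to 2 in the rest. Against a floor of 3 counts over the group, the knockout was at least 15.5-fold higher. Fut8, the core fucosyltransferase, had 11 and 7 against 0 and 1, a ratio of 31.7 with an interval of 5.01 to 1.32e+03. Intron 1 of Gphn, the gene of gephyrin (chromosome 12, 78226842 to 78343351, 116.5 kb), had 0, 0, 1, 0, 3, 1, 10 and 15 boundary reads, nearly all at its 5′ edge, against 61, 64, 24, 30, 47, 29, 21 and 26 spliced (ratio 13.7, interval 4.17 to 70.6; scaled adjusted p = 0.0403). Nearly all spliced reads of Gphn were exact, 99.1% on average. Intron 3 of Tnrc6a, a partner of Argonaute proteins, passed when scaled (adjusted p = 0.0111; unscaled, 0.716) with 104 and 77 boundary reads in Ly6Chi and 96 and 86 in the knockout. Its spliced reads were 94 and 73 against 7 and 25, and cMoP 2 had 9, so here the spliced reads differed and the boundary reads did not separate the groups.

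**Figure D4:**
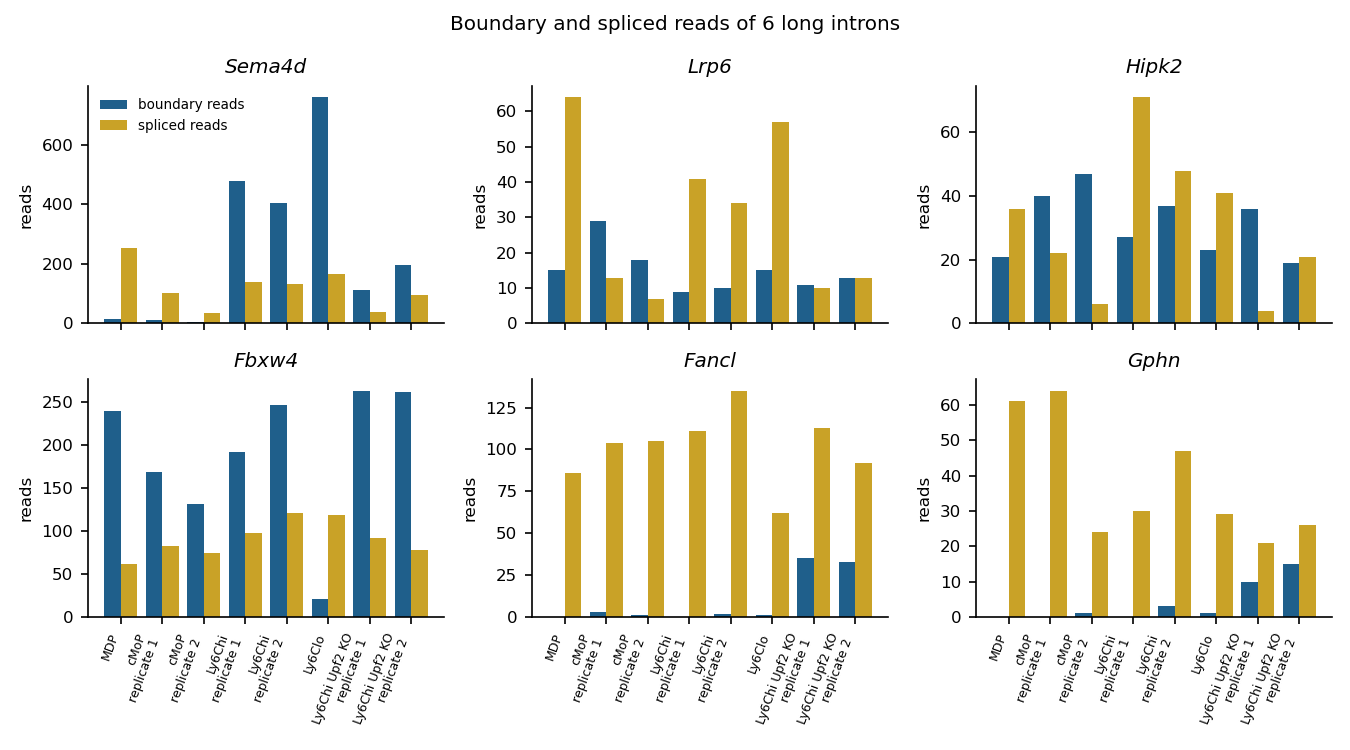
Boundary reads and spliced reads (vertical axis, reads) of 6 long introns in each of the 8 libraries; each pair of bars is 1 library. Sema4d boundary reads are high in the monocyte libraries (480 and 404 in Ly6Chi against 10 and 4 in cMoP), Fbxw4 is low in Ly6Clo (21), and Fancl is high in the knockout (35 and 33).

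Boundary reads also varied between groups of host genes. Taken by the lists of genes used for expression, the median of boundary reads per 100 spliced reads, averaged over the 8 libraries, was 2.08 in the 61 long introns of transcription factors of blood cells and 1.93 in the 87 of kinases, phosphatases and phosphoinositide genes. It was 1.10 in the 55 of chromatin genes, 1.22 in the 65 of cytoskeletal and adhesion genes, 1.18 in the 47 of ubiquitin genes and 1.16 in the 26 of RNA processing genes, beside 1.81 in all long introns. No test was made of these values.

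Expression of the host genes was compared over all 13126 genes reaching 1 TPM in 2 or more libraries, with limma on log2(TPM + 1), and the changes given are on this scale, where those of low genes come out too small. Of the 1112 host genes, 1101 were tested. In bulk RNA, fewer cells of a type and less RNA per cell cannot be told apart.

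From cMoP to Ly6Chi, 515 of the 1101 host genes (46.8%) rose and 146 (13.3%) fell, beside 32.3% and 23.3% of all 13126 genes, and beside 32.1% and 25.7% of the 5876 genes with only shorter measured introns. The median log2 change was 0.52 in host genes and 0.19 in all genes. Centring each library on its median gene lowers all changes by 0.33, to 0.19 and -0.14, and then 428 host genes were higher and 248 lower, beside 25.6% and 34% of all. The 428 were all among the 515. The gap between the medians was 0.33, which centring cannot change because it shifts all genes alike. It was 0.29 with quantile normalisation, 0.28 without cMoP 2 and 0.42 without cMoP 1. Without cMoP 2, 431 (39.1%) rose and 166 (15.1%) fell, beside 26.9% and 24.7% of all. Leaving out 1 Ly6Chi library cut the counts in host genes and in all genes. Without Ly6Chi 1 they were 231 and 61 (5.54%), beside 16.5% and 12.3% of all, and without Ly6Chi 2 they were 281 and 58 (5.27%), beside 18.4% and 12.2%. Taken in both directions together, 26.5% of host genes and 28.8% of all were called without Ly6Chi 1, against 60.04% and 55.5% in the fit of all libraries. The cMoP libraries had a stronger 3′ lean of reads (0.446 and 0.670) than the Ly6Chi libraries (0.225 and 0.277), and its part was not tested.

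**Figure D5:**
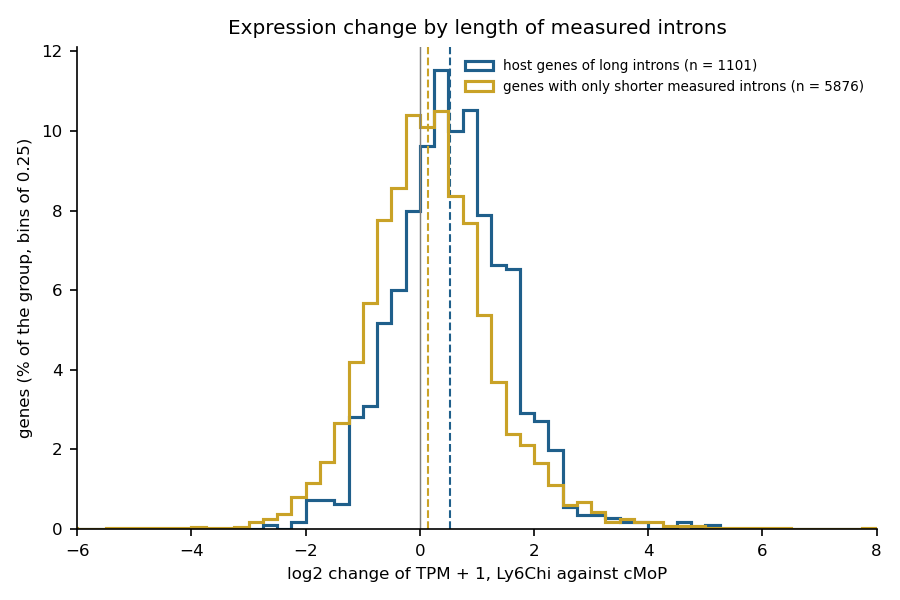
Log2 change of TPM + 1 from cMoP to Ly6Chi (horizontal axis) as the share of genes per bin (vertical axis, %), for 1101 host genes of long introns and 5876 genes with only shorter measured introns; dashed lines are the medians, 0.52 and 0.14. The host genes are shifted to higher values.

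The 4 host genes with the largest rise were Lsp1, Gsn, Sulf2 and Rara. Lsp1, a leukocyte actin-binding protein, was at 214.8 TPM in the MDP library, 111.7 and 31.9 in the cMoP ones, 1914 and 2122 in the Ly6Chi ones, 2246 in Ly6Clo, and 1827 and 1730 after knockout (log2 change 5.05 ± 0.53, adjusted p = 0.00117). All monocyte libraries lay above all progenitor libraries. Gsn, gelsolin, which severs actin filaments, had 15.3, 6.44, 2.64, 133.2, 129.0, 109.1, 114.2 and 109.0 TPM (4.67, adjusted p = 0.000354). Sulf2, an extracellular sulfatase of heparan sulfate, had 4.89, 5.06, 2.72, 128.1, 111.4, 47.4, 66.6 and 77.5 TPM (4.67, adjusted p = 0.000194). Rara, the retinoic acid receptor alpha, rose from 10.4 and 5.99 to 125.1 and 127.5 TPM (3.84, adjusted p = 0.000309).

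The 4 with the largest fall were Pabpc4, Dtd1, Mdn1 and Uchl3. Pabpc4, a poly(A)-binding protein, was at 127.2 TPM in the MDP library, 125.6 and 188.2 in the cMoP ones, 25.6 and 23.3 in the Ly6Chi ones, 22.4 in Ly6Clo, and 25.3 and 25.4 after knockout (-2.61 ± 0.21, adjusted p = 0.000527), again with no overlap of progenitors and monocytes. Mdn1, a ribosome assembly ATPase, fell from 10.5 and 20.9 to 3.04 and 2.26 TPM (adjusted p = 0.00386). Dtd1, which clears mischarged tRNAs and has an intron of 111 kb, fell from 26.1 and 30.8 to 6.31 and 5.05 TPM (adjusted p = 0.000687). The deubiquitinase Uchl3 fell from 58.6 and 100.3 to 18.7 and 18.8 TPM (adjusted p = 0.00228).

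Among kinases, phosphatases and phosphoinositide genes with a long intron, 36 of 49 rose and 0 fell from cMoP to Ly6Chi, with a median of 1.26 (35 and 1 with median centring, 32 and 0 without cMoP 2, 21 and 26 higher without Ly6Chi 1 and 2). Over the whole list 80 of 112 rose and 3 fell, with a median of 1.24, so its genes with a long intron stood close to the list. Ptprc, the leukocyte phosphatase CD45, had 110.8, 55.4, 33.8, 496.4, 479.6, 1019, 287.4 and 336.0 TPM (3.46 ± 0.24, adjusted p = 0.000333). Pik3cd, a leukocyte PI3-kinase subunit with 4 long introns, rose from 100.3 and 73.7 to 222.3 and 223.9 TPM (adjusted p = 0.00224). Mapk14, the p38 alpha kinase, rose from 156.3 and 116.5 to 259.3 and 243.3 TPM (adjusted p = 0.00668). Dgkz did not pass, at 166.5 and 121.4 against 213.5 and 183.7 TPM (adjusted p = 0.0633).

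Of 30 cytoskeletal and adhesion genes with a long intron 20 rose and 1 fell, with a median of 1.36 (20 and 2 with centring, 18 and 2 without cMoP 2, 13 and 17 higher without Ly6Chi 1 and 2), beside 55 and 5 of the whole list of 80 (median 1.25). Actr3, a subunit of the Arp2/3 complex, rose from 483.1 and 448.8 to 1145 and 1127 TPM (adjusted p = 0.000512), and Msn, moesin, from 212.5 and 134.0 to 715.0 and 655.3 TPM (adjusted p = 0.00197).

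Of 22 transcription factors of blood cells with a long intron, 15 rose and 0 fell, with a median of 1.14 (14 and 3 with centring, 11 and 2 without cMoP 2, 5 and 6 higher without Ly6Chi 1 and 2). Over the whole list of 71, 42 rose and 10 fell, with a median of 1.02. Zeb2, a regulator of monocyte identity with 4 long introns, had 79.5, 80.6, 22.2, 221.7, 201.7, 240.8, 54.9 and 87.4 TPM (2.29 ± 0.58, adjusted p = 0.0192). The 2 cMoP libraries differed widely and the knockout libraries lay near the progenitors, although the knockout did not pass (adjusted p = 0.336). Stat3, an effector of cytokine receptors, rose from 31.0 and 29.7 to 129.7 and 127.3 TPM (2.05, adjusted p = 0.000313). Chromatin genes had 12 of 24 higher and 0 lower (8 and 1 with centring, 9 and 0 without cMoP 2, 3 and 3 higher without Ly6Chi 1 and 2), beside 28 and 4 of the whole list of 72.

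Ubiquitin ligases and deubiquitinases had 12 of 24 higher and 0 lower, with a median of 0.58 (7 and 3 with centring, 10 and 1 without cMoP 2, 5 and 6 higher without Ly6Chi 1 and 2), beside 38 and 2 of the whole list of 79 (median 0.60). Rnf130 rose from 156.3 and 107.6 to 341.9 and 335.4 TPM (adjusted p = 0.00242), while Cul3, a cullin scaffold, was at 117.2 and 112.5 against 149.9 and 126.4 TPM (adjusted p = 0.142). RNA processing genes had 6 of 10 with a long intron higher and 0 lower (5 and 1 with centring), but over all 72 genes of that list 15 rose and 26 fell. Without Ly6Chi 1 none of the 10 was called, without Ly6Chi 2 1 was, and without cMoP 2 3 were. Mbnl1, a splicing regulator with 8 long introns, had 311.1, 174.9, 89.7, 339.5, 281.2, 282.7, 114.2 and 173.3 TPM (1.29, adjusted p = 0.0248). Smg6 and Nbas, decay factors with long introns, did not pass in any of the comparisons.

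Other transitions called fewer host genes. From MDP to cMoP 6 rose and 12 fell, beside 1.35% and 2.52% of all genes, and 21 and 11 did so with median centring, beside 3.11% and 2.25%. Without cMoP 1 the counts were 33 (3%) and 389 (35.3%), beside 8.11% and 29.4% of all genes, and without cMoP 2 they were 11 and 21, beside 2.74% and 3.34%. Without any 1 of the Ly6Chi or knockout libraries fewer were called, among host genes and among all genes. Dstn, destrin, which depolymerises actin, rose from 33.3 TPM to 310.7 and 350.2 (3.27 ± 0.15, adjusted p = 0.00116), and App, the amyloid precursor protein with 5 long introns, from 17.8 to 106.7 and 91.4 (2.41, adjusted p = 0.00529). Sema4d fell from 69.7 to 20.0 and 11.04 TPM (-2.15, adjusted p = 0.0398), and Mta3, a subunit of the NuRD complex, from 45.9 to 17.2 and 12.4 (-1.59, adjusted p = 0.0238). The call was lost in 7 of 12 alternatives for Sema4d and in 5 of 12 for Mta3. Without 1 Ly6Chi or knockout library the adjusted p was 0.103 to 0.11 for Sema4d and 0.0918 to 0.0965 for Mta3.

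From Ly6Chi to Ly6Clo 38 host genes rose and 67 fell, beside 5.9% and 7.12% of all. The counts and the excess of falls rest on the libraries fitted. They were 12 and 11 without Ly6Chi 1 (1.98% and 2.49% of all), 11 and 10 without Ly6Chi 2 (2.05% and 2.59%), and 21 and 24 without knockout 1 (3.12% and 4.05%) or knockout 2 (3.15% and 4.08%). In the compared groups alone they were 131 and 140 (12.2% and 12.9%), and without cMoP 1 they were 116 and 157 (13.6% and 14.5%). Pik3ap1, an adaptor of PI3-kinase, rose from 27.1 and 24.6 TPM to 275.3 (3.36 ± 0.34, adjusted p = 0.00287). Lair1, an inhibitory receptor for collagen, rose from 19.5 and 22.6 to 179.2 TPM (3.04, adjusted p = 0.00688), Rcan1, a calcineurin inhibitor, from 15.2 and 13.4 to 113.8 (2.91, adjusted p = 0.000723), and the integrin chain Itgb5 from 32.3 and 26.2 to 186.8 (2.64, adjusted p = 0.00612). F13a1, the A chain of coagulation factor XIII, with 3 long introns, fell from 1495 and 1336 to 43.4 TPM (-4.99 ± 0.30, adjusted p = 0.0006). Gas7, which binds actin, fell from 86.2 and 75.1 to 7.17 TPM (adjusted p = 0.00417), and the scaffold gene Iqgap2 from 130.4 and 121.8 to 17.3 (adjusted p = 0.0162, but 0.0873 without Ly6Chi 1 and 0.0782 without Ly6Chi 2).

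In the Upf2 knockout no host gene passed against Ly6Chi by limma, beside 1 of all genes (0.00762%), with 208 host genes (18.9%) at an unadjusted p under 0.05 beside 14.6% of all. That share ran from 1.09% without Ly6Chi 1 (3.45% of all) to 43.3% without cMoP 2 (33.3% of all). The median change was -0.28 in host genes and -0.12 in all genes, or -0.08 in host genes and 0.08 in all with median centring. The knockout libraries too had the stronger 3′ lean, 0.645 and 0.437, whose part was not tested. None of the 5 host genes with the most long introns passed. Diaph2 was at 9.45 and 13.9 TPM against 30.6 and 25.9 in Ly6Chi (adjusted p = 0.336), and Mapkap1 at 32.6 and 30.9 against 44.5 and 44.3 (adjusted p = 0.336). Exoc4 was at 10.4 and 13.6 against 20.05 and 19.1 TPM (adjusted p = 0.376), and Cdkal1 at 5.53 and 6.21 against 8.70 and 6.57 (adjusted p = 0.446). Ctbp2 was at 40.9 and 46.9 against 48.2 and 46.2 TPM (adjusted p = 0.691).

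Markers of other cell types moved with the groups, and their part in these results was not tested. Of 16 neutrophil markers, 12 to 16 were at 1 TPM or more in each library. Their summed level was 1692 TPM in the MDP library, 592 and 556 in the cMoP ones, 4394 and 4398 in the Ly6Chi ones, 5651 in Ly6Clo, and 7366 and 6154 after knockout. The highest of them, Chil3, had 33.5, 50.3, 109, 2532, 2132, 130, 4699 and 4144 TPM in the library order given above. It thus made up most of the sum after knockout and little of it in Ly6Clo. Between knockout and Ly6Chi 0 of the 16 markers passed by limma, and their median log2 change was -0.05. The sum over 13 dendritic cell markers was 3865 TPM in Ly6Clo, mostly H2-Ab1 at 3354, and 120 to 553 elsewhere, with Ccr9 and Xcr1 under 1 TPM in every library. The sum over 11 macrophage markers was 1015 TPM in Ly6Clo and 6.17 to 146 elsewhere, with Cd5l and Marco under 1 TPM in every library. The sum over 13 B and plasma cell markers was 438 to 1027 TPM, highest in Ly6Clo and mostly Ighm, with Ebf1 under 1 TPM throughout. Of the 13, 12 were at 1 TPM or more in Ly6Clo, 8 in MDP and 4 or 5 in each of the others. Of 13 T and NK cell markers 11 were under 1 TPM in every library, and the sum was 0.35 to 8.09 TPM. Erythroid markers summed to 7.72 to 329 TPM, and those of eosinophils, basophils and mast cells to 12.7 to 49.8. None of these lists held a host gene of a long intron.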

How the data were processed

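Intron retention and gene expression were read from the authors' deposited tables for 8 poly(A) RNA libraries (stranded, read pairs of 100 bases). Per the submitters' processing notes, FastQC, Trimmomatic, STAR 2.5.2a and RSEM were used with mm10; the tool that made the intron tables is not given in the sources used here. Each deposited intron table gives counts of boundary and spliced reads, the covered share of bases as a fraction, the intron's depth as a signal, and the retention ratio as a fraction. The deposited expression table is headed FPKM, but every column has the same total, that of TPM, so its values were treated as TPM.

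The 2268 long introns and the gene lists were chosen with earlier results of these data known. Retention was tested with edgeR 4.0.16 in R 4.3.3 (quasi-likelihood, 1 effect per library, a boundary effect per group, offsets from each library's total boundary and spliced reads, 3 residual degrees of freedom), on introns with at least 20 boundary reads in all. Expression was tested with limma 3.58.1 on log2(TPM + 1). P-values were Benjamini-Hochberg adjusted over all features, and DESeq2 1.42.0 served as an alternative. Scripts were checked on simulated data. Same-numbered replicates did not deviate together (r of -0.014, -0.061 and -0.043), so the numbers do not pair the samples.

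Named introns are, for each comparison, those that pass or, where none passes, the 3 with the lowest p in each direction; those with the highest retention ratio, the greatest length and the highest and lowest 5′ share of boundary reads; and the host genes with the most long introns. Named host genes are the 4 highest and lowest per comparison and up to 4 per list. The rule for the lowest exact share met 287 ties at 0 and was not used. Some genes and 1 gene list that the rules name are not reported here. Positions are in mm10. No genome sequence was used, so exon joins are shown instead of splice sites. A count of 3 is the floor for a group at 0, and intervals and floors cover counting error only.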

Additional observations from a re-analysis of the deposited data

How the results depend on the processing

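Left-out libraries, scalings and counting rules were tried; the limit on exact reads, the summed reads and the limit of 10 to 49 reads were added after seeing the data. Of the alternatives for summary values, 91 left the result in place, 44 moved it, 15 brought calls and 10 lost them, in part because a set left out the called intron.

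The mean share of long introns at a ratio of 0.1 or more, 0.43%, became 0.694% at 0.05, 0.353% at 0.2, 0 without warnings, 0.979% for introns of 10 kb and over and 0.522% at 50 reads. Boundary reads per 100 spliced reads, 1.81, became 2.86 per 100 exact reads. The 5′ share, 31.2%, became 41.7% from summed reads. The exact share, 89.9%, was 94.2% from 10 kb, 86.4% from 50 kb and 89.0% at 50 reads. The share of genes whose long introns lay below their shorter ones, 53.9%, was 50.04% from 50 kb and 36.4% with exact reads.

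Long introns called between cMoP and MDP went from 0 (0% of all introns) to 1 with TMM scaling (0.0187% of all). Between Ly6Chi and cMoP, 1 call (beside 0.0145% of all introns) became 20 with TMM scaling (0.409% of all). It became 3 with exact reads (0.054%) or DESeq2 size factors apart (0.054%). It became 2 with no minimum of boundary reads (0.0275%), with the 5′ boundary alone (0.0582%) or with DESeq2 at the same offsets (0.0312%). The count was 0 in the compared groups alone (0.00416%). It was also 0 from 50 kb, at 50 reads and with at least 0.5 exact, but these sets leave out the called intron, that of Sema4d. That intron is shorter than 50 kb, has under 50 reads in cMoP 2 and has under 0.5 of its spliced reads exact. Between Ly6Clo and Ly6Chi, 0 (0% of all) became 3 with TMM scaling (0.0623% of all) or DESeq2 apart (0.0125%). It became 2 with exact reads (0.00831%) and 8 in the compared groups alone (0.879%). In the knockout, 0 (0.00208% of all) became 8 with TMM scaling (0.129% of all) or in the compared groups alone (0.814%). It became 1 with no minimum (0.0137%), and 2 with the 5′ boundary alone (0.0519%) or DESeq2 apart (0.0249%). Over the stages, 1 (0.0125% of all) became 32 with TMM scaling (1.07% of all), 6 with no minimum (0.0931%) and 0 at 50 reads (0.00263%). Leaving out 1 library gave 0 to 36, 0 to 41, 0 to 6, 0 to 8 and 0 to 62 calls in these comparisons; without cMoP 1 they were 36, 41, 5, 8 and 62 (2.98, 3.39, 0.414, 0.662 and 5.13% of the long introns, beside 10.3, 14.5, 0.432, 0.964 and 13.9% of all), and without cMoP 2 they were 0, 5, 6, 8 and 16 (0, 0.414, 0.497, 0.662 and 1.32%, beside 0.0187, 0.0727, 0.42, 0.904 and 0.925%). The Sema4d intron turned to -1.13 with the 5′ boundary alone, where it has 1 read in all. The cause of the other changes was not tested.

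Host genes called between cMoP and MDP, 18, became 36 with a pseudocount of 10, 34 with no filter, 32 with median centring, 67 with quantile normalisation, 0 in the compared groups alone and 2 to 422 without 1 library. Between Ly6Chi and cMoP, 661 became 292 to 806 without 1 library. Between Ly6Clo and Ly6Chi, 105 became 199 with quantile normalisation, 271 in the compared groups alone and 21 to 273 without 1 library. In the knockout the count was 0 in the alternatives run.

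With the replicate number as a block over the 6 numbered libraries, long introns called were 1 in Ly6Chi against cMoP and 0 in the knockout, as without the block, and host genes were 562 (661 without the block) and 0. The median long intron had 2 to 3 boundary reads in a library, and the part of this depth in the number of calls was not tested.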
